A study of Mus musculus with 39 samples.

Results

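Transcripts of 35 bone, stromal and matrix genes were followed in bone marrow, spleen and liver of mice kept for 2 hours either at reduced oxygen or as controls. The genes were chosen by symbol: products of bone-forming and bone-resorbing cells, fibrillar and network collagens, small proteoglycans and glycoproteins of the matrix, collagen cross-linking enzymes, matrix proteases with their inhibitors, and regulators of mesenchymal cells. A gene was read in each tissue from its brightest probe set among those whose annotation names that gene alone. Of the 35 genes, 30 had such a probe set, out of 18193 genes in all. Runx2, Bglap, Spp1 and Fbn1 were not analysed here, and Loxl2 was found only on probe sets annotated with several genes and was not tested.

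Each array held RNA of 1 sample. Bone marrow of the right humerus gave 4 reduced oxygen and 3 control arrays, spleen cross-sections gave 8 and 8, and pieces of the left lateral liver lobe gave 8 and 8. All mice were B6C3F1, a hybrid strain, and all were killed under ketamine and acepromazine anaesthesia. The sample titles call the reduced oxygen condition hypoxia and the control vehicle, and give no oxygen level, vehicle substance or age. Bone marrow RNA was extracted with another kit than liver and spleen RNA. The labels do not say that samples of a group came from separate mice, so p-values measure sample-to-sample spread alone, and this may be technical.

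Median log2 intensity per array ran from 6.65 to 6.69 in bone marrow, from 6.53 to 6.61 in spleen and from 5.62 to 5.71 in liver, and the number of arrays sets the precision. The tissues appear to have been normalized apart, so levels in different tissues are descriptions only. Of 8 hepatocyte markers, 8 passed the brightness filter in liver, 6 in spleen and 2 in bone marrow, and their summed log2 intensity was 17.58 or more in every liver array and 10.26 or less in every spleen and bone marrow array. Neutrophil markers passed in all tissues (9 of 9 in bone marrow and spleen, 7 of 9 in liver), with summed levels of at least 17.55 in bone marrow and at most 16.11 in spleen and 10.15 in liver. In spleen and liver the replicate numbers 1 to 4 and 5 to 8 stood apart in their dim probe sets. The 30th percentile of log2 intensity ran from 5.01 to 5.07 in the first 8 spleen arrays and from 5.07 to 5.14 in the others without overlap, and in liver from 4.40 to 4.47 and from 4.53 to 4.57. The labels name no batch, so spleen and liver results are also given within each array set. These are bulk samples, in which fewer cells of a type and less RNA per cell cannot be told apart.

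Bone matrix is laid down by osteoblasts as type I collagen, made from the Col1a1 and Col1a2 chains, on which mineral forms with the help of bone sialoprotein (Ibsp), alkaline phosphatase (Alpl) and osteonectin (Sparc). Soft tissues hold the same fibrils mixed with types III and V collagen, coated by the small proteoglycans decorin and lumican, cross-linked by lysyl oxidase (Lox) and cut by matrix metalloproteases. In spleen and liver such matrix belongs mainly to the capsule, vessel walls, reticular fibroblasts and stellate cells, and type IV collagen forms the basement membranes beneath endothelium and epithelium.

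The probe sets of these genes were bright in bone marrow. Ranked by brightness among all genes of a tissue, 17 of the 30 members had their highest rank in bone marrow, 10 had it in spleen and 3 had it in liver. Col1a2, Col1a1 and Sparc lay at the 99.9th, 99.8th and 99.5th percentile in bone marrow, against 96.3, 76.0 and 98.1 in spleen and 72.3, 52.6 and 84.0 in liver. Ibsp, an osteoblast product, lay at percentile 92.9 in bone marrow but at 8.6 in spleen and 13.5 in liver, and Mmp13, collagenase 3, at 69.8, 5.6 and 1.2. The 3 members that stood highest in liver were fibronectin (Fn1, percentile 99.2), Snai2 (70.0) and Sp7 (56.0). All 30 members passed the brightness filter in bone marrow. Ibsp, Mmp13 and Lum were too dim to test in spleen, and Ibsp, Mmp13, Lox and Timp1 in liver. Brightness depends on the probes as well as on the transcript, so these percentiles do not compare one gene's abundance with another's.

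In bone marrow 8 of 30 members rose and 2 fell under reduced oxygen (limma, adjusted p under 0.05), together 10 of 30, against 7.69% of all 12735 genes tested, of which 2.76% rose and 4.92% fell. The ranges of the 4 reduced oxygen and 3 control arrays did not overlap for 13 members that were higher and 2 that were lower, against 7.77% and 12.7% of all genes. Of the 30 differences 21 were positive, against 47.3% of all genes. The median of the 30 was a log2 difference of 0.20, against -0.01 over all genes tested. The members were chosen with earlier results of these data known, so these shares describe the list and do not test it. The rises were below 2-fold and came from osteoblast products (Ibsp and Sparc), fibrillar collagens (Col3a1 and Col5a2), proteoglycans and glycoproteins (Lum, Dcn and Postn) and the protease Mmp2, and the falls were those of Snai2 and Mmp13. The count of members called was 6 without reduced oxygen replicate 1, 4 without reduced oxygen replicate 2 and 3 without reduced oxygen replicate 3, where 908, 408 and 469 of all genes were called, against 979 with every array. It was 6 without control replicate 1 and 4 without control replicate 2, where 706 and 447 genes were called. In 1 fit of all 39 arrays, which shares its estimate of spread over the tissues, 4 of 30 members and 310 genes were called in bone marrow, and 8 of 27 members and 2734 genes in spleen.

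**Figure D1:**
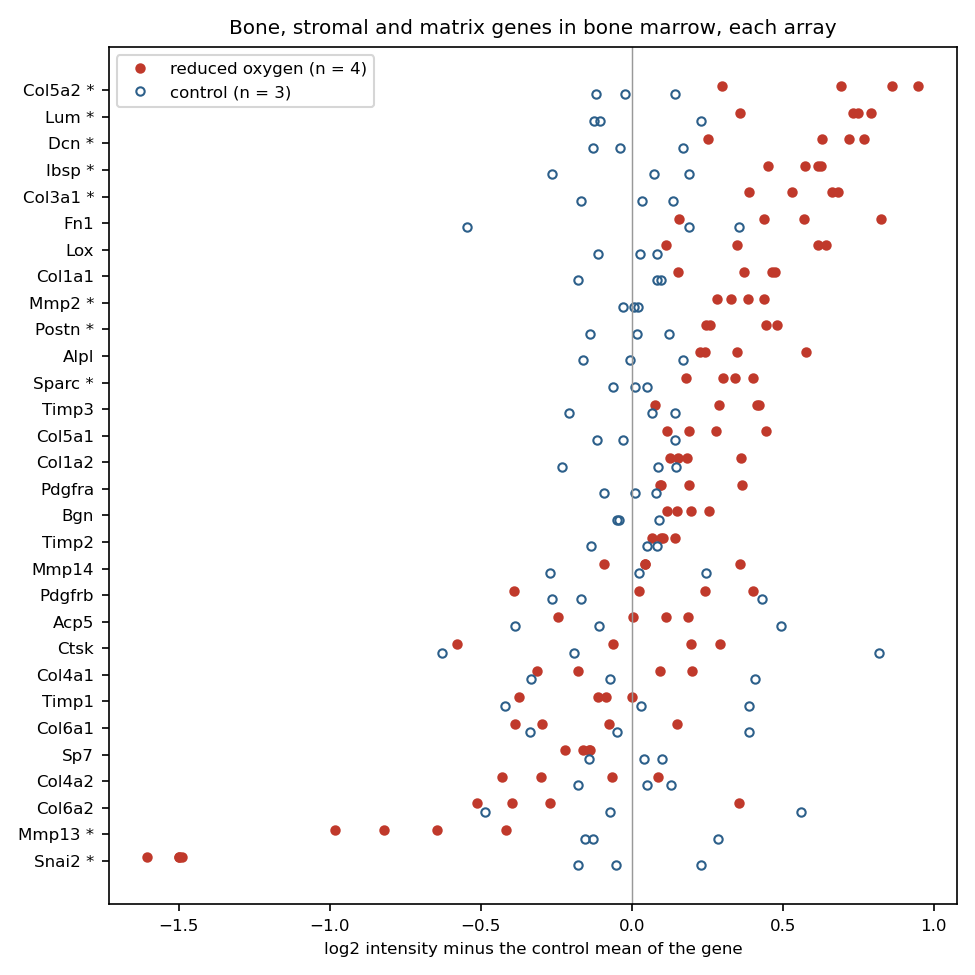
Log2 intensity of the 30 measured genes in each bone marrow array, minus the control mean of that gene, with reduced oxygen arrays as filled points (n = 4) and control arrays as open points (n = 3). A star marks the 10 genes called by limma, and the filled points of Snai2 lie about 1.5 below the control mean while those of Col5a2, Lum, Dcn, Ibsp and Col3a1 lie right of every control point.

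Upstream sequences were read for the members that moved in bone marrow and that the RefSeq table holds, to show what precedes their start sites. Shown are the 250 bases before an annotated start on build GRCm38.p6, written 5′ to 3′ on the gene's strand, for 4 genes that rose (Ibsp, Sparc, Col3a1 and Postn) and for Mmp13, which fell. Capitals mark matches, on either strand, to the letters searched. The hypoxia-inducible factor core was searched as ACGTG and also as GCGTG. The RUNX motif was searched as TGTGGT, the AP-1 motif as TGANTCA, the E-box as CAGGTG, the TATA box as TATAAA and the glucocorticoid receptor site as AGAACA.
Ibsp, chr5:104299037-104299286, plus strand: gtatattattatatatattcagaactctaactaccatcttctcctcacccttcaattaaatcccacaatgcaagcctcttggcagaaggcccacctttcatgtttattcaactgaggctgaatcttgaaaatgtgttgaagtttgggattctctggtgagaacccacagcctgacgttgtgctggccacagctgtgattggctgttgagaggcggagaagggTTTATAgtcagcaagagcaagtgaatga
Sparc, chr11:55420081-55420330, minus strand: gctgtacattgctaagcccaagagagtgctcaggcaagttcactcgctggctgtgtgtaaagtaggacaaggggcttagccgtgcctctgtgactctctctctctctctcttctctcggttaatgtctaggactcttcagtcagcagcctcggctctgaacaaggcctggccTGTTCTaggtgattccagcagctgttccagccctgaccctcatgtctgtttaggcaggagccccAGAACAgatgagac
Col3a1, chr1:45311288-45311537, plus strand: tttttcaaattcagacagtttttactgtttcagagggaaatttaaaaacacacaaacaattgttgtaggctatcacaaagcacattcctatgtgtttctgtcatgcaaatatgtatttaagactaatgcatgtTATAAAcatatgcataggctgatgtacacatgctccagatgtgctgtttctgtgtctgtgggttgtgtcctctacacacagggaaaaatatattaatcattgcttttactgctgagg
Postn, chr3:54360857-54361106, plus strand: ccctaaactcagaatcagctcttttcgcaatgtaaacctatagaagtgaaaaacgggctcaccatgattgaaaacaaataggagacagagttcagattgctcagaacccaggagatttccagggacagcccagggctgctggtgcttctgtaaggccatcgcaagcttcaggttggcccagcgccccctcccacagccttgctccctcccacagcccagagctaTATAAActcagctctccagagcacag
Mmp13, chr9:7272264-7272513, plus strand: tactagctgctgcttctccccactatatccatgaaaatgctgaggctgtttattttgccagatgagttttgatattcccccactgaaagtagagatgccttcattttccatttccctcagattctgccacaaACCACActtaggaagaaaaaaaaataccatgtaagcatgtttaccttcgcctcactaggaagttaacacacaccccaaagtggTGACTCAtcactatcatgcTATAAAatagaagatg
The Ibsp match at positions -28 to -23 is TATAAA on the opposite strand, and Postn and Mmp13 hold TATAAA at -26 to -21 and -16 to -11, counted back from the start. Mmp13 also holds TGACTCA at -35 to -29 and the RUNX letters, on the opposite strand, at -118 to -113. Col3a1 has TATAAA farther upstream, at -117 to -112, and Sparc has the AGAACA letters at -78 to -73 and at -14 to -9. None of the 5 windows holds either form of the hypoxia-inducible factor core, or the E-box. Postn has another annotated start, whose window (chr3:54359017-54359266) holds none of the motifs and is not printed. Among all 32851 windows of the table, 12.4% hold TATAAA, 6.7% TGANTCA, 14.0% TGTGGT, 16.1% AGAACA, 16.6% ACGTG, 28.2% GCGTG and 17.2% CAGGTG, with none of these motifs overlapping another in the windows shown. The table held 30 windows of 24 of the 30 genes, and 7 of those genes had a TATAAA, 7 a GCGTG, 5 a TGTGGT, 5 a CAGGTG, 4 an ACGTG, 4 an AGAACA and 2 a TGANTCA. Col4a1, Col4a2 and Timp3 are among those with GCGTG. Such matches are descriptions of the letters and not binding sites.

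Among the osteoblast genes of bone marrow, 2 of 6 rose and none fell, against 2.76% and 4.92% of all genes. Ibsp, bone sialoprotein, had log2 intensities of 11.15, 10.98, 11.10 and 11.14 in the reduced oxygen arrays, against 10.26, 10.60 and 10.72 in the control arrays. The groups did not overlap, and Ibsp was 1.48-fold higher (log2 change 0.57 ± 0.11 SE, adjusted p = 0.0163). A dimmer Ibsp probe set differed by 0.40 ± 0.17 when every probe set was tested on its own, and was not called (adjusted p = 0.215). Sparc, the collagen-binding osteonectin, had 13.53, 13.50, 13.60 and 13.37 under reduced oxygen, against 13.25, 13.13 and 13.20 in controls, a 1.24-fold rise (0.31 ± 0.07, adjusted p = 0.0298). Its second probe set was called too when every probe set was tested on its own, with a log2 change of 0.34. The dimmest Sparc probe set, at 0.07, was not called (adjusted p = 0.598). Col1a1 and Alpl, whose reduced oxygen arrays also all lay above the controls, missed the threshold, with log2 differences of 0.37 ± 0.10 (adjusted p = 0.0637) and 0.35 ± 0.11 (adjusted p = 0.0856). Col1a2 differed by 0.21 and overlapped. The brightest probe sets of both type I collagen chains lie near the top of the intensity range, and dimmer probe sets of both, singled out after their values were seen, were called when every probe set was tested alone (log2 changes of 0.41 for Col1a1 and 0.43 for Col1a2). Sp7, the osteoblast transcription factor osterix, had 6.92 ± 0.04 under reduced oxygen and 7.08 ± 0.13 in controls (SD, n = 4 and 3), a log2 difference of -0.17 that was not called.

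The osteoclast genes did not pass the test in bone marrow. Ctsk, the collagen-cutting cathepsin K, averaged 8.87 ± 0.39 under reduced oxygen and 8.91 ± 0.74 in controls (SD, n = 4 and 3). Acp5, tartrate-resistant acid phosphatase, averaged 10.86 ± 0.19 under reduced oxygen and 10.84 ± 0.45 in controls. The 95% intervals of the log2 differences ran from -0.79 to 0.71 for Ctsk and from -0.42 to 0.45 for Acp5. Changes within those bounds remain compatible with these arrays.

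Of the fibrillar collagens beside type I, 2 of 3 rose in bone marrow, against 2.76% of all genes. Col5a2, a chain of the type V collagen that nucleates fibrils, had 12.32, 12.15, 12.40 and 11.75 under reduced oxygen, against 11.33, 11.43 and 11.60 in controls. This was the largest rise among the members, 1.63-fold (log2 change 0.70 ± 0.15, adjusted p = 0.0253), with reduced oxygen replicate 4 nearest the controls. Its second probe set moved by 0.86 and was called on its own. Col3a1, the collagen of reticular fibres, had 10.57, 10.56, 10.42 and 10.28 under reduced oxygen, against 9.92, 9.72 and 10.03 in controls, a 1.48-fold rise (0.57 ± 0.10, adjusted p = 0.0123). Col5a1, the partner chain of Col5a2, differed by 0.26 ± 0.09 with overlapping groups (adjusted p = 0.135). The call of Col3a1 held in all 7 fits that left out 1 array, with adjusted p from 0.0149 to 0.0465. That of Col5a2 was lost without control replicate 1 or 2 or reduced oxygen replicate 1, 2 or 3, where its log2 change was 0.64, 0.69, 0.65, 0.70 and 0.62.

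The network collagens showed no call in either direction, and all 4 differences were negative, while 47.3% of all genes had positive ones. Col4a1 and Col4a2, the basement membrane chains, differed by -0.05 ± 0.18 and -0.18 ± 0.13, and Col6a1 and Col6a2, chains of the beaded filaments around cells, by -0.15 ± 0.18 and -0.21 ± 0.27 on the log2 scale. Col6a2 averaged 9.67 ± 0.39 under reduced oxygen and 9.87 ± 0.53 in controls (SD, n = 4 and 3), with control replicate 1 the highest array at 10.43. Without that array the Col6a2 difference was 0.07.

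Of the proteoglycans and glycoproteins, 3 of 5 rose, against 2.76% of all genes, and all 5 differences were positive, against 47.3% of all genes. Lum, lumican, had 10.66, 10.72, 10.68 and 10.29 under reduced oxygen, against 9.82, 9.80 and 10.16 in controls, and was 1.58-fold higher (log2 change 0.66 ± 0.13, adjusted p = 0.0184). Dcn, decorin, which coats collagen fibrils, had 11.45, 11.36, 11.50 and 10.99 under reduced oxygen, against 10.61, 10.69 and 10.90 in controls, and was 1.51-fold higher (0.59 ± 0.13, adjusted p = 0.0292). In both genes reduced oxygen replicate 4 was the lowest of its group but stayed above every control. Postn, periostin, a matrix protein of the bone surface, had 7.78, 7.82, 7.59 and 7.60 under reduced oxygen, against 7.20, 7.46 and 7.36 in controls (0.36 ± 0.09, adjusted p = 0.0439), and this call was lost in each of the 7 fits with 1 array left out (adjusted p from 0.0565 to 0.124) and without the brightness filter. Bgn, biglycan, differed by 0.18 without overlap and was not called (adjusted p = 0.119). Fibronectin was read differently by its 2 probe sets: the brighter differed by 0.50 ± 0.22 with overlapping groups (adjusted p = 0.210), while the dimmer, singled out after its values were seen, rose by 1.93 ± 0.32 when every probe set was tested on its own (adjusted p = 0.0136). The call of Dcn was lost without control replicate 1 or 2 or reduced oxygen replicate 1, 2 or 3, where its log2 change was 0.53, 0.57, 0.55, 0.58 and 0.53. That of Lum was lost without control replicate 1 or 2 or reduced oxygen replicate 2 or 3, where it was 0.61, 0.60, 0.61 and 0.63.

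Lox, the enzyme that starts collagen cross-links, had 10.09, 9.82, 10.12 and 9.59 in reduced oxygen marrow, against 9.36, 9.56 and 9.50 in control marrow. The groups did not overlap, with reduced oxygen replicate 4 only just above the controls, and the log2 difference of 0.43 ± 0.13 missed the threshold (adjusted p = 0.0802).

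The proteases moved in opposite directions. Mmp2, gelatinase A, had 8.72, 8.60, 8.66 and 8.56 under reduced oxygen, against 8.25, 8.30 and 8.28 in controls, a 1.28-fold rise (log2 change 0.36 ± 0.06, adjusted p = 0.0101) that was called in all 7 fits with 1 array left out. Mmp13, the collagenase of osteoblasts and cartilage, fell to 8.74, 8.33, 8.17 and 8.51 under reduced oxygen, against 9.0, 9.44 and 9.03 in controls, and was 1.64-fold lower (-0.72 ± 0.15, adjusted p = 0.0252). Neither pair of groups overlapped. Mmp14, the membrane protease that activates Mmp2, differed by 0.09 ± 0.14, and the inhibitors Timp1, Timp2 and Timp3 by -0.14 ± 0.17, 0.10 ± 0.07 and 0.30 ± 0.11 (adjusted p = 0.657, 0.386 and 0.140). The Mmp13 call was lost without control replicate 2 or 3 or reduced oxygen replicate 2, 3 or 4, where its log2 change was -0.57, -0.78, -0.68, -0.63 and -0.74, and that of Sparc without control replicate 2 or 3 or reduced oxygen replicate 1, 2 or 3, with 0.28, 0.31, 0.29, 0.31 and 0.27. Ibsp lost its call without reduced oxygen replicate 3 (log2 change 0.56, adjusted p = 0.0508).

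Snai2, which encodes the zinc finger repressor Slug of mesenchymal cells, showed the largest change of all members. In bone marrow it had 6.89, 6.88, 6.90 and 6.78 under reduced oxygen, against 8.21, 8.61 and 8.33 in controls. The reduced oxygen arrays lay within 0.12 of each other and far below the controls, and Snai2 was 2.87-fold lower (log2 change -1.52 ± 0.09, adjusted p = 0.000207). The call held in all 7 fits with 1 array left out, with changes from -1.61 to -1.41. The probe set read here carries the suffix of probes that may match other transcripts, and the other Snai2 probe set, at -0.88, was too dim in bone marrow to be tested. The platelet-derived growth factor receptors of mesenchymal cells and pericytes, Pdgfra and Pdgfrb, differed by 0.19 ± 0.08 and 0.07 ± 0.21 and were not called (adjusted p = 0.201 and 0.875).

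The other genes of bone and matrix were counted in 8 lists without the members, likewise chosen with earlier results of these data known. Of 115 entries tested in bone marrow 9 were called (7.83%), against 7.69% of all genes. Of these entries 9 were higher and 0 lower, against 2.76% higher and 4.92% lower over all genes. Of the other osteoblast and osteocyte genes, 5 of 14 tested rose in bone marrow, against 2.76% of all genes, and none fell. These were Vdr, the vitamin D receptor (log2 change 1.11 ± 0.19, adjusted p = 0.0117), Phex, a phosphate-regulating protease of osteocytes (0.59 ± 0.10, adjusted p = 0.0126), the osteoblast cadherin Cdh11 and the minor fibrillar collagens Col11a1 and Col11a2. None of 13 osteoclast genes, 14 genes of CXCL12-rich stroma or 11 other collagens was called. In each of the remaining lists 1 gene rose and none fell: Smoc2 of 18 matrix proteins (0.59 ± 0.15), the lysyl hydroxylase Plod2 of 16 collagen-processing genes (1.11 ± 0.18), the protease Adamts1 of 15 proteolysis genes (1.42 ± 0.10) and the TGF-beta inhibitor Smad7 of 14 mesenchymal regulators (0.32 ± 0.07), with adjusted p of 0.0499, 0.0110, 0.000267 and 0.0239. Markers of neighbouring tissue are given beside these results. The 9 skeletal muscle genes tested had a median difference of 0.59 with 0 called, and its summed log2 intensity ran from 11.15 to 11.76 in reduced oxygen arrays and from 10.21 to 11.32 in control arrays. Among other cell type markers the adipocyte gene Fabp4 (0.68 ± 0.16), the fibroblast marker Pdpn (0.32 ± 0.08) and the macrophage receptor Cd163 (0.31 ± 0.07) rose, and no cartilage or endothelial marker was called. Their part in the result was not tested.

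**Figure D2:**
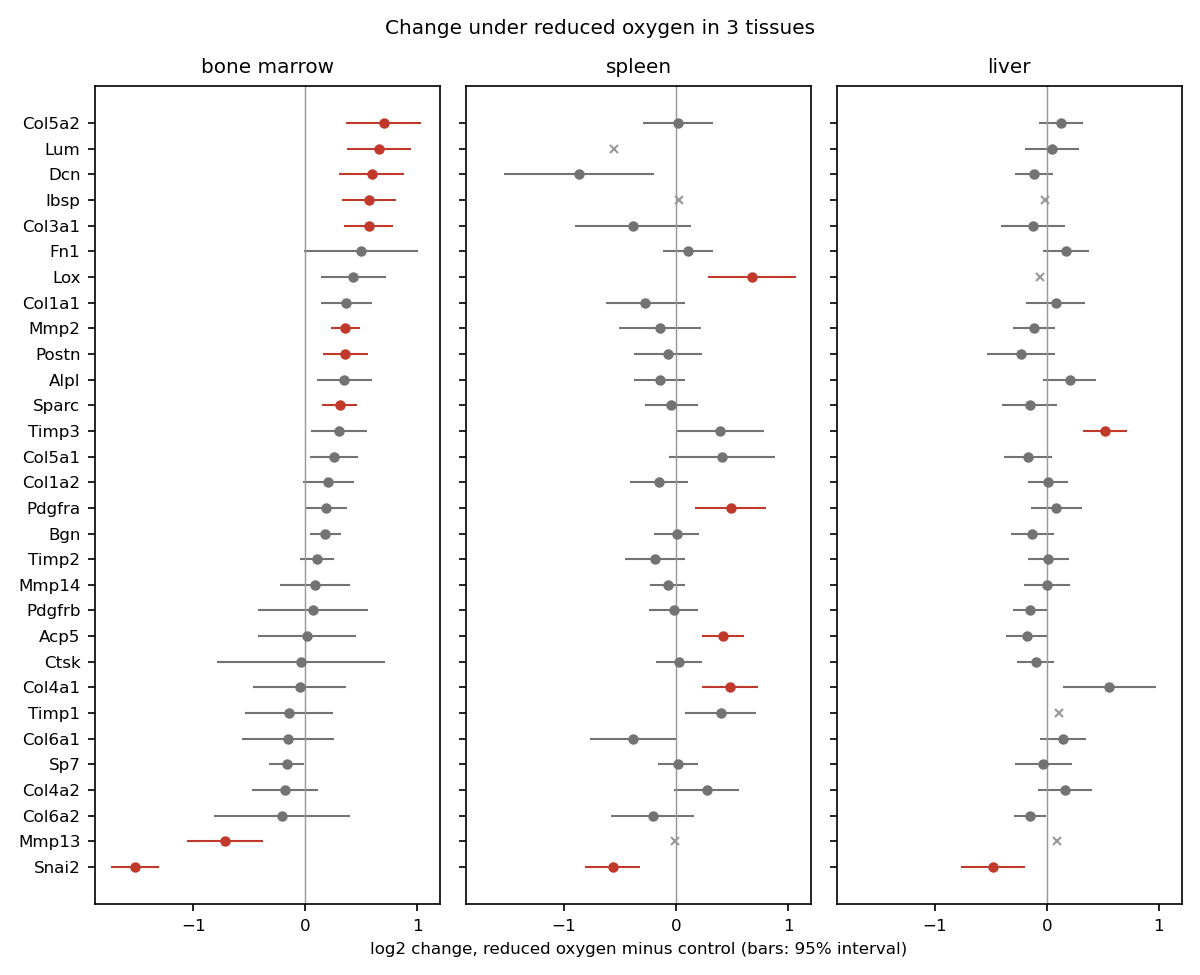
Log2 change, reduced oxygen minus control, of the 30 genes in bone marrow (n = 4 and 3), spleen and liver (n = 8 and 8 each), with 95% intervals from limma. Red points are called, grey points are not and crosses without a bar are genes under the brightness filter, and Snai2 is the 1 gene called in all 3 panels.

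In spleen 5 of the 27 members tested were called, 4 that rose and Snai2 that fell. This share lay near the background, since 19.4% of all 12735 genes were called in spleen, 6.83% higher and 12.6% lower, and the median log2 difference of the 27 was -0.02, against -0.01 over all genes. No member's groups were fully apart in spleen, against 4.69% of all genes, of which 1.19% were higher and 3.49% lower. The genes that rose were Lox, the receptor Pdgfra, the basement membrane chain Col4a1 and Acp5, the acid phosphatase that red pulp macrophages share with osteoclasts.

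Lox ran from 6.44 to 8.13 in the 8 reduced oxygen spleens with a median of 7.13, against 6.06 to 6.94 with a median of 6.59 in the 8 control spleens. All but 1 of the reduced oxygen arrays lay above every control array, and Lox was 1.60-fold higher (log2 change 0.68 ± 0.19, adjusted p = 0.0153). A second probe set of the gene rose by 0.74 when tested on its own. Pdgfra ran from 8.68 to 9.91 with a median of 9.25 under reduced oxygen, against 8.60 to 8.97 with a median of 8.79 in controls, with 6 of 8 reduced oxygen arrays above every control (0.49 ± 0.15, adjusted p = 0.0282). All 3 tested probe sets of Pdgfra were called on their own, at 0.49, 0.68 and 0.48. Without control replicate 3 or reduced oxygen replicate 1 the Pdgfra call was lost (0.47 and 0.41).

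Col4a1 ran from 10.23 to 11.14 with a median of 10.82 in reduced oxygen spleens, against 10.02 to 10.63 with a median of 10.25 in control spleens, and rose 1.40-fold (log2 change 0.48 ± 0.12, adjusted p = 0.00872). The other Col4a1 probe set differed by 0.32 ± 0.13 when every probe set was tested on its own, and was not called (adjusted p = 0.102). The partner chain Col4a2 differed by 0.27 ± 0.14 (adjusted p = 0.191). Acp5 ran from 11.18 to 11.94 with a median of 11.49 under reduced oxygen, against 10.97 to 11.32 with a median of 11.05 in controls, and rose 1.34-fold (0.42 ± 0.09, adjusted p = 0.00298). Here 6 of 8 reduced oxygen arrays lay above every control. Snai2 ran from 6.54 to 7.45 with a median of 6.88 under reduced oxygen, against 7.30 to 7.89 with a median of 7.46 in controls, so that 7 of 8 reduced oxygen arrays lay below every control. The fall was 1.48-fold (-0.57 ± 0.12, adjusted p = 0.00213), and the second Snai2 probe set fell too, by 0.40.

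**Figure D3:**
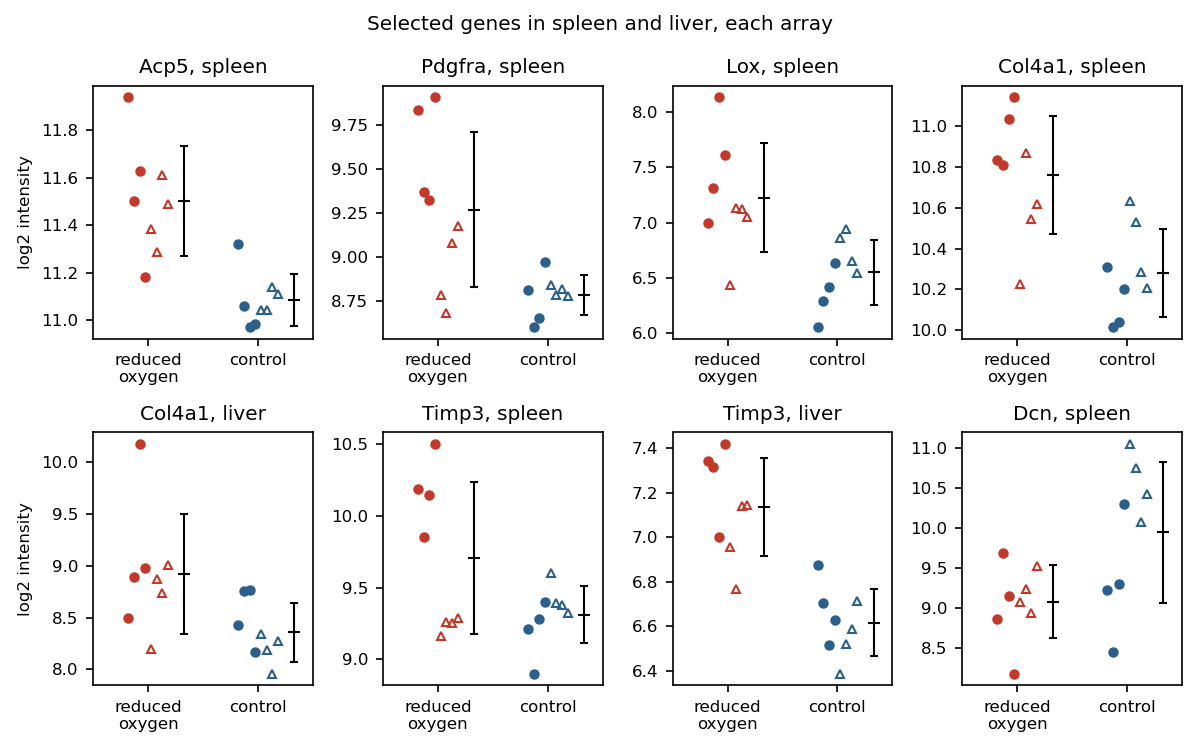
Log2 intensity of Acp5, Pdgfra, Lox, Col4a1, Timp3 and Dcn in each spleen or liver array, reduced oxygen left of control, with circles for replicates 1 to 4, triangles for replicates 5 to 8 and bars for mean and SD (n = 8). Timp3 in spleen separates by array set among the reduced oxygen arrays, which run from 9.86 to 10.50 in replicates 1 to 4 and from 9.16 to 9.29 in replicates 5 to 8.

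Dcn and Col3a1, which rose in bone marrow, had among the largest negative differences in spleen. Dcn ran from 8.19 to 9.69 with a median of 9.12 in reduced oxygen spleens, against 8.46 to 11.05 with a median of 10.19 in control spleens, a log2 difference of -0.87 ± 0.32 that missed the threshold (adjusted p = 0.0643). It was called in 1 fit of all 39 arrays (adjusted p = 0.00402), without control replicate 1 (-0.97, adjusted p = 0.0482), without control replicate 2 (-1.08, adjusted p = 0.00824) and with array set as a term (adjusted p = 0.0309). Col3a1 differed by -0.39 ± 0.24 and Col6a1 by -0.38 ± 0.18 (adjusted p = 0.301 and 0.159). Of the members not called, Col5a1 and the inhibitors Timp1 and Timp3 had the largest positive differences, 0.41 ± 0.22, 0.40 ± 0.15 and 0.39 ± 0.18. Lum, under the brightness filter in spleen, averaged 4.56 ± 0.35 under reduced oxygen and 5.11 ± 0.76 in controls (SD, n = 8 each), without a test. Ibsp averaged 3.85 under reduced oxygen and 3.83 in controls, and Mmp13 3.64 under reduced oxygen and 3.65 in controls.

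The matrix genes took different values in the 2 array sets of spleen. Within replicates 5 to 8, 15 of the 27 members were called, 14 of them lower, against 25.9% of all genes (9.16% higher and 16.7% lower), and 22 of 27 differences were negative with a median of -0.25. Within replicates 1 to 4, 5 members were called, all higher, against 3.78% of all genes (1.92% higher and 1.86% lower), and 3 of 27 differences were negative with a median of 0.26. The medians over all genes tested were -0.03 and -0.01. Decorin and the collagens had the largest negative values. Dcn had a mean of 9.19 ± 0.25 under reduced oxygen and 10.58 ± 0.42 in controls of replicates 5 to 8 (SD, n = 4 each), a log2 change of -1.38 (adjusted p = 0.00184), and 8.97 ± 0.63 under reduced oxygen and 9.32 ± 0.76 in controls of replicates 1 to 4. Col3a1 had 10.44 ± 0.30 under reduced oxygen and 11.50 ± 0.42 in controls of replicates 5 to 8 (log2 change -1.06, adjusted p = 0.00708), and 10.97 ± 0.41 under reduced oxygen and 10.68 ± 0.51 in controls of replicates 1 to 4, where its difference was 0.29. Col1a1, Col1a2, Col6a1, Col6a2, Sparc, Mmp2 and Timp2 likewise fell within replicates 5 to 8, by 0.78, 0.54, 0.94, 0.67, 0.38, 0.64 and 0.57 in log2 units, and had positive uncalled differences within replicates 1 to 4.

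The genes that rose within replicates 1 to 4 were Lox (log2 change 1.16), Timp3 (0.98), Pdgfra (0.85), Col4a1 (0.81) and Col4a2 (0.67). In replicates 5 to 8 the same genes differed by 0.19, -0.19, 0.13, 0.15 and -0.13, none of them called. Acp5 and Snai2 kept their directions in both sets, at 0.48 and -0.43 in replicates 1 to 4, where neither was called, and at 0.36 and -0.70 in replicates 5 to 8, where both were. A test of the difference between the sets' responses, added after these values were seen, called 1 of the 27 members, Timp3 (-1.16 ± 0.18, adjusted p = 0.0479). By the same adjusted threshold 0.196% of all genes were called. Without adjustment 20 of 27 members had p under 0.05, a level at which the share of all genes was not counted. Markers of the spleen surface and of smooth muscle are given by array set. The summed log2 intensity of the mesothelium and capsule list ran from 8.54 to 10.01 in reduced oxygen spleens and from 9.83 to 11.31 in control spleens of replicates 5 to 8, and from 8.79 to 9.62 in reduced oxygen and from 8.15 to 9.71 in control spleens of replicates 1 to 4. Smooth muscle and pericyte markers ran from 11.79 to 12.00 in reduced oxygen and from 12.25 to 12.54 in control spleens of replicates 5 to 8. In replicates 1 to 4 they ran from 12.16 to 12.88 in reduced oxygen and from 11.98 to 12.76 in control spleens. None of the 6 mesothelial and 11 smooth muscle genes tested was called over all arrays, and their part in the result was not tested.

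**Figure D4:**
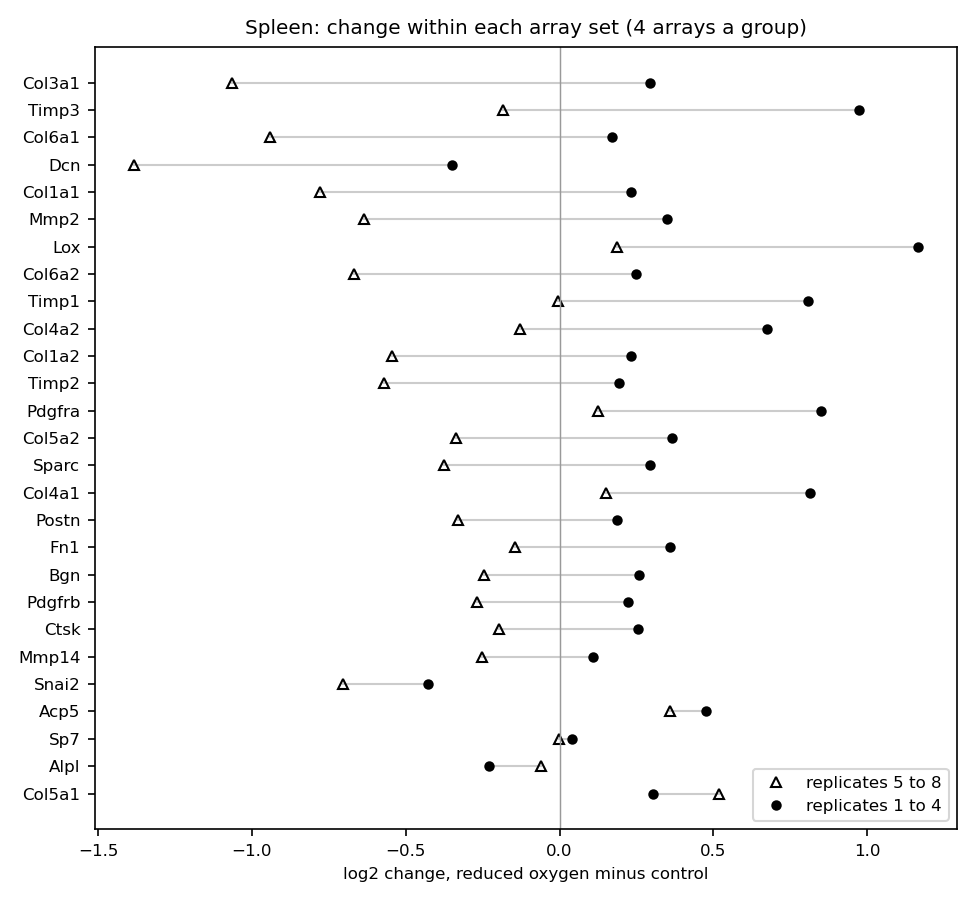
Log2 change, reduced oxygen minus control, of the 27 members tested in spleen, within replicates 1 to 4 (filled circles) and within replicates 5 to 8 (open triangles), 4 arrays a group in each. Most triangles lie left of 0 and most circles right of it, and Snai2 lies left of 0 in both.

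Over the 8 lists 18 of 117 entries tested were called in spleen (15.4%, with Mmp9 counted on 2 lists), 10 higher and 8 lower. Of all genes 19.4% were called, 6.83% higher and 12.6% lower. Of the other proteolysis genes 4 of 18 rose and none fell, led by Mmp8, the collagenase of neutrophil granules (log2 change 2.15 ± 0.49, adjusted p = 0.00496), and Adamts9 (0.55 ± 0.14, adjusted p = 0.00891), and Mmp9, gelatinase B, was the 1 of 10 osteoclast genes called (1.18 ± 0.35, adjusted p = 0.0226). Neutrophil markers lay beside these: 2 of 9 rose, and the summed log2 intensity of the list had a median of 15.41 in reduced oxygen spleens and 14.07 in control spleens. Of 15 collagen-processing genes the hydroxylases Plod1 (0.34 ± 0.09) and P4ha1 (0.36 ± 0.12) rose, while the proteoglycans Fmod (-0.64 ± 0.21) and Prelp (-0.43 ± 0.14) fell among 24 matrix proteins, with adjusted p of 0.0133, 0.0371, 0.0418 and 0.0435. Haptoglobin (Hp) rose and Il7 and Igfbp5 fell among 13 genes of CXCL12-rich stroma. Of 16 other mesenchymal regulators 4 fell and 2 rose, with Tcf21, a factor of splenic stroma, at -0.98 ± 0.20 (adjusted p = 0.00212) and the repressor Zeb2 at -0.34 ± 0.07 (adjusted p = 0.00251) of smallest p. None of 8 osteoblast genes or 13 other collagens was called. Single spleens stood apart in marker lists. Reduced oxygen replicate 4 had a summed reticular cell level of 10.84, against 12.25 or more in every control. Pancreas acinar markers reached 13.45 in reduced oxygen replicate 2 and 15.85 in control replicate 5, against medians of 9.98 in reduced oxygen and 9.53 in control spleens, and adipocyte markers reached 12.41 in control replicate 4, against a control median of 10.61. The part of attached tissue in the spleen matrix values was not tested.

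In liver 2 of the 26 members tested were called, against 11.1% of all 12735 genes, of which 3.88% rose and 7.22% fell. No member's groups were fully apart, against 2.84% of all genes, 1.02% higher and 1.82% lower. Timp3, the matrix-bound metalloprotease inhibitor, rose, and Snai2 fell. The median difference of the 26 was -0.01 on the log2 scale, against -0.03 over all genes. Timp3 ran from 6.77 to 7.42 with a median of 7.14 in the 8 reduced oxygen livers, against 6.39 to 6.88 with a median of 6.61 in the 8 control livers. Of the reduced oxygen arrays 7 of 8 lay above every control, and Timp3 was 1.43-fold higher (log2 change 0.52 ± 0.09, adjusted p = 0.000862). All 4 of its probe sets were higher and 3 were called on their own. The change was 0.59 within replicates 1 to 4 and 0.45 within replicates 5 to 8, called in both.

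Snai2 ran from 7.18 to 7.83 with a median of 7.53 in reduced oxygen livers, against 7.50 to 8.69 with a median of 7.95 in control livers. The groups overlapped in 5 of the 8 reduced oxygen arrays, and the fall was 1.40-fold (log2 change -0.48 ± 0.14, adjusted p = 0.0288). It was -0.47 within replicates 1 to 4, where it was not called, and -0.49 within replicates 5 to 8, where it was. The call was lost without control replicate 1 (-0.44), reduced oxygen replicate 7 (-0.43) or reduced oxygen replicate 8 (-0.47), and the second probe set differed by -0.26 without a call.

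Col4a1 was close to the threshold in liver. It ran from 8.20 to 10.18 with a median of 8.88 in reduced oxygen livers, against 7.96 to 8.77 with a median of 8.31 in control livers, and the highest array was reduced oxygen replicate 3. The difference of 0.56 ± 0.20 was not called (adjusted p = 0.0806), but was with the replicate number as a block (adjusted p = 0.0198), in 1 fit of all arrays (0.0174), with array set as a term (0.0379), after quantile normalization (0.0451) and without reduced oxygen replicate 5 (0.66, adjusted p = 0.0280). With that block 2385 of all genes were called in liver, against 1413 without it. In 8 other settings Col4a1 stayed uncalled. Of the 16 fits with 1 array left out, only 1 called it, with changes from 0.38 to 0.66 and adjusted p up to 0.135. The other Col4a1 probe set differed by 0.27 ± 0.16 in liver when every probe set was tested on its own, and was not called (adjusted p = 0.339). The next largest positive difference was that of Alpl, 0.20 ± 0.11, and the most negative after Snai2 were those of Postn, -0.23 ± 0.15, and Acp5, -0.18 ± 0.09, all uncalled. The 4 members under the filter averaged, under reduced oxygen and in controls, 4.75 and 4.81 for Lox, 4.47 and 4.36 for Timp1, 3.93 and 3.94 for Ibsp and 3.15 and 3.05 for Mmp13. The fibrillar collagens, proteoglycans and Timp2 all had uncalled differences between -0.23 and 0.18.

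Over the 8 lists 11 of 95 entries tested were called in liver (11.6%), against 11.1% of all genes. Of these entries 7 were higher and 4 lower, against 3.88% higher and 7.22% lower over all genes. Of 15 collagen-processing genes P4ha1, the prolyl hydroxylase subunit, rose (log2 change 0.79 ± 0.14, adjusted p = 0.000670), and of 11 proteolysis genes Adamts1 (1.00 ± 0.13, adjusted p = 3.35e-05) and the lysosomal protease Ctsl (0.31 ± 0.06, adjusted p = 0.00195) rose. Of 12 other mesenchymal regulators 2 rose and 3 fell, with Skil, an inhibitor of SMAD signalling, at 1.73 ± 0.14 (adjusted p = 6.72e-08) and Zeb2 at -0.53 ± 0.13 (adjusted p = 0.00865). Smoc2 rose among 20 matrix proteins (0.30 ± 0.09), Atf4 among 5 osteoblast genes (0.26 ± 0.07) and Bmp4 fell among 9 stroma genes (-0.37 ± 0.12). None of 12 osteoclast genes or 11 other collagens was called. Of 8 stellate cell markers, 1 was called, Colec10, which fell by 0.37.

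Snai2 was called in all 3 tissues and was the only member called in more than 1. Of the 30 measured members, 15 were called in at least 1 tissue. The shares of all genes called in as many tissues were not counted, so these counts cannot be set against a background. The log2 change of Snai2 was -1.52 ± 0.09 for bone marrow, -0.57 ± 0.12 for spleen and -0.48 ± 0.14 for liver. The fall was larger in bone marrow than in liver, by 1.04 ± 0.23 log2 units (interaction in 1 limma fit of all 39 arrays, adjusted p = 0.00463), and the difference of -0.96 ± 0.23 between bone marrow and spleen missed the threshold (adjusted p = 0.0546). Between spleen and liver the responses differed by -0.09 ± 0.18. These were 1 of 26 members called between bone marrow and liver, against 2.81% of genes, and 0 of 27 between bone marrow and spleen, against 0.264%. Between bone marrow and spleen 10 members had p under 0.05 without adjustment, a level at which the share of all genes was not counted. All of these differences rest on the brighter Snai2 probe set.

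**Figure D5:**
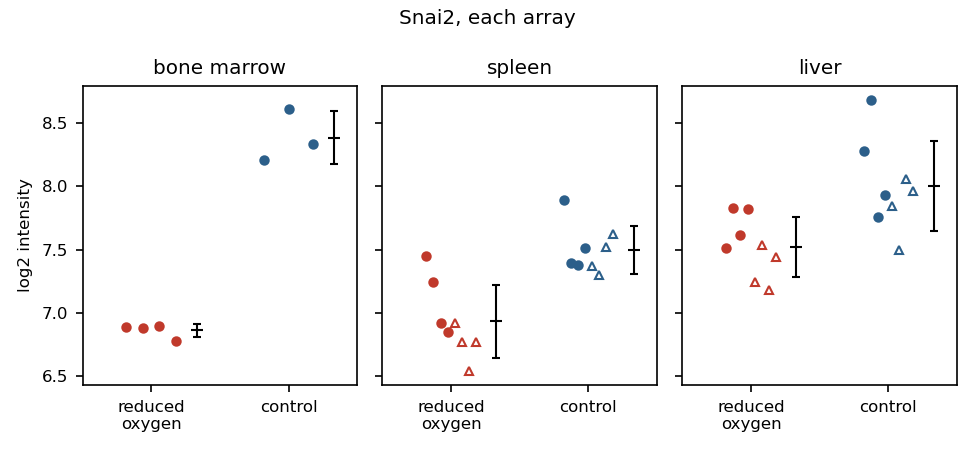
Log2 intensity of Snai2 in each array of bone marrow (n = 4 and 3), spleen and liver (n = 8 and 8 each), reduced oxygen left of control, with circles for replicates 1 to 4, triangles for replicates 5 to 8 and bars for mean and SD. The reduced oxygen marrow arrays lie between 6.78 and 6.90, below the lowest control at 8.21, while the groups overlap in spleen and liver.

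Acp5 was the member whose response differed between spleen and liver. Its change was 0.42 ± 0.09 in spleen and -0.18 ± 0.09 in liver, a difference of 0.59 ± 0.14 (adjusted p = 0.00499), 1 of 25 members, against 9.84% of genes. Acp5 overlapped between groups in bone marrow and its response there did not pass the test against either tissue (adjusted p = 0.577 and 0.738). The contrast between bone marrow and spleen in the matrix genes was not called: the responses of Dcn and Col3a1 differed by 1.46 ± 0.41 and 0.95 ± 0.35 (adjusted p = 0.156 and 0.370). The rises called in bone marrow for Col5a2, Lum, Dcn, Ibsp, Col3a1, Mmp2, Postn and Sparc were thus not shown to differ from the other tissues. Ibsp was too dim in spleen and liver for that test, and Lum too dim in spleen.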

How the data were processed

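Total RNA of bone marrow, spleen and liver was hybridised to 1-colour Affymetrix arrays. The authors deposited 1 intensity per probe set and array on a linear scale, and the submitters' processing notes name RMA and limma without versions, settings or the grouping of arrays in the normalization. Of 45101 probe sets, 34945 had 1 gene symbol in the platform annotation, 932 several and 9160 none, and 64 were controls. Intensities were taken to log2. Each gene was read from its brightest probe set in the tissue, and genes under the 30th percentile of mean log2 intensity were left out, which left 12735 per tissue. Reduced oxygen was compared with control in each tissue with limma 3.58.1 (lmFit and eBayes, R 4.3.3), two-sided, with Benjamini-Hochberg adjustment over all genes tested and calls at an adjusted p under 0.05. Values after ± are standard errors unless marked SD. Responses of tissues were compared as interactions in 1 fit of 39 arrays. Tables and plots used Python 3.11.15, the R package data.table (1.17.8), pandas 2.3.3 and matplotlib 3.10.9, and the fit was tested on simulated data.

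The members and the 24 gene lists were chosen with earlier results of these data known. Values were given for each member called in a tissue, for the 3 largest rises and falls per tissue, and for up to 2 called genes of smallest p per pathway list. The main liver fit had no term for pairing, and the replicate number as a block was an alternative. Same-numbered liver samples had correlated deviations in all 8 pairs (0.166 to 0.535, mean 0.303). Other numbers of the same array set averaged 0.262, and 4 of 8 pairs correlated best with their own number, so shared array set and pairing cannot be told apart. Alternatives were other probe set choices, dim filters, scalings, priors, blocks and left-out arrays. Tests of every probe set alone and of array set by condition were added after seeing the data. Upstream sequences came from RefSeq, build GRCm38.p6.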

Additional observations from a re-analysis of the deposited data

Results flagged for a closer look

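Of 136 groups of 4 to 8 arrays examined for a single array apart from the others, 10 had one, and chance marks about 1 in 20 groups. In bone marrow, reduced oxygen replicate 4 was lowest for Lum, at 10.29, against a group median of 10.67, and for Snai2, at 6.78. In spleen, reduced oxygen replicate 4 was lowest for Alpl, at 5.79, and control replicate 2 was lowest for Ctsk at 6.19, Mmp14 at 8.67 and Timp1 at 6.16. In liver, reduced oxygen replicate 3 was highest for Col4a1 at 10.18, reduced oxygen replicate 2 was highest for Sparc at 9.26, and control replicate 7 was lowest for Col1a1 at 5.61 and Col3a1 at 8.13. These are log2 intensities.

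The responses of 3 members differed by a test of the difference itself. Acp5 differed between spleen and liver by 0.59, Snai2 between bone marrow and liver by -1.04, and Timp3 between replicates 5 to 8 and replicates 1 to 4 of spleen by -1.16, on the log2 scale.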

How the results depend on the processing

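For the named members, 258 values under other settings were counted, not including the fits with 1 array left out. Of these, 234 kept their direction and their side of the threshold, 14 lost the call, 9 gained one and 1 reversed. The reversal was Col3a1 in spleen within replicates 1 to 4, at 0.29. Leaving out 1 array lost further calls. In bone marrow these were Postn in 7 of 7 fits, Col5a2, Dcn, Mmp13 and Sparc in 5 each, Lum in 4 and Ibsp in 1. Of 16 fits each, Pdgfra in spleen lost its call in 2 and Snai2 in liver in 3. Dcn in spleen gained a call in 2 and Col4a1 in liver in 1. Without control replicate 1 the uncalled Col6a2 difference in bone marrow was 0.074, and it ran from -0.45 to 0.074 with 1 array left out. In 1 fit of all arrays 310 genes and 4 members were called in bone marrow, 8 members in spleen and 2180 genes in liver. Within replicates 1 to 4, 482 genes were called in spleen and 781 in liver, and within replicates 5 to 8, 15 members in spleen. With array set as a term, 2668 genes and 4 members were called in liver, and with plain probe sets only, 1 member. With the replicate block, 940, 1960 and 2385 genes and 12, 5 and 3 members were called in bone marrow, spleen and liver. The 3 same-numbered bone marrow pairs had correlations from -0.03 to 0.32 (mean 0.14), against a mean of -0.05 between differently numbered samples. Only 1 of them correlated best with its own number, and 3 pairs are too few to decide on pairing. The 8 spleen pairs ran from -0.48 to 0.31 (mean -0.06), against 0.01 between differently numbered samples. Of these, 0 correlated best with their own number, so the spleen numbers showed no pairing. Differences of responses between bone marrow and spleen were called for 51 genes without the dim filter and 53 with the mean of all probe sets, with 1 and 2 members. Under the same settings 2 and 2 members were called between spleen and liver, and 3 and 2 between bone marrow and liver. With 1 array left out, 408 to 908 genes and 3 to 10 members were called in bone marrow, 2103 to 2871 genes and 4 to 6 members in spleen, and 1072 to 1571 genes and 1 to 3 members in liver. The cause was not tested. The small bone marrow groups and, for dim genes, signal near background limit what could be called.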
